A study of Mus musculus with 10 samples.

Results

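The genes described here are 34 nuclear genes of the mitochondrial respiratory chain, taken from a table of 46603 genes by their gene names: 13 of complex I, 4 of complex II, 6 of complex III, the electron carrier cytochrome c (Cycs) and 10 of complex IV. They were measured in macrophages of 4T1 tumours, which are tumours grown in mice from a mammary carcinoma cell line. Viable cells positive for the myeloid marker CD11B and the macrophage marker F4/80 were sorted into a fraction with surface podoplanin (PDPN-positive, called PoEMs in the labels) and one without it (PDPN-negative, called non-PoEMs). Each fraction gave 5 RNA-seq libraries, from tumours numbered 1, 2, 4, 5 and 6, so that every PDPN-positive library has a PDPN-negative partner from the tumour of the same number. The study asks what PDPN-positive macrophages do in the growth of lymphatic vessels and the remodelling of matrix. Both groups come from the same tumours, and the sources used here name no treatment, genotype, strain or age. Nor do the labels say whether the tumours came from separate mice. The p-values therefore weigh the mean difference between the fractions against its spread among these tumours, estimated partly from other genes.

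The respiratory chain passes electrons from NADH (complex I) or succinate (complex II) to ubiquinone, on to complex III, by cytochrome c to complex IV, and there to oxygen. Complexes I, III and IV pump protons across the inner membrane, and ATP synthase uses the gradient. Complex II pumps none, is also an enzyme of the tricarboxylic acid (TCA) cycle, and is the only one of the 4 complexes with no subunit encoded in mitochondrial DNA. In macrophages the balance between respiration and glycolysis shifts with activation state and oxygen supply.

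Library totals ran from 12597829 to 15406722 counts. Levels below are in CPM, counts scaled to the size of the library, with TMM, a normalisation that centres the bulk of genes. Pdpn itself, the gene of the sorted protein, stood at 19.3 ± 7.34 CPM in PDPN-negative and 215 ± 22.9 CPM in PDPN-positive libraries (SD, n = 5 each) and was higher in every tumour. The 9 macrophage markers (Adgre1, Itgam, Csf1r, Cd68, Fcgr1, Mertk, C1qa, C1qb and C1qc) summed to 14237 to 15979 and 14536 to 16126 CPM. Of these, Itgam, Cd68 and Mertk were called higher in the PDPN-positive fraction (log2 fold change 0.23, 0.23 and 0.32), Csf1r and Fcgr1 were called lower (-0.25 and -0.25), and the other 4 were not called. Mitochondrially encoded genes took 0.595% ± 0.140 and 0.585% ± 0.0791 of the counts (SD, n = 5 each, exact permutation test over pairs, two-sided p = 0.938). Of the 13 mitochondrially encoded subunits 6 are listed at 0 counts in every library, so this share does not include them.

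Each gene was compared between the fractions with the tumour as a block, and called where edgeR's quasi-likelihood test gave a Benjamini-Hochberg adjusted p under 0.05 over 13595 genes. All 34 respiratory chain genes passed the filter on low counts. Of them 6 rose in the PDPN-positive fraction, none fell and 28 were not called: Ndufa2 and Ndufb9 of complex I, Uqcrb of complex III, and Cox5a, Cox7a2 and Cox6a1 of complex IV. The rises were small, between 1.10-fold for Cox6a1 and 1.152-fold for Uqcrb. The share called higher, 17.6%, compares with 13.8% of all genes tested, and 14.3% of all genes were called lower. In bulk RNA, fewer cells of a type and less RNA per cell cannot be told apart.

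These calls lie near the threshold. Without the block 1 of the 34 was called (Uqcrb, higher, against 6.83% of all genes higher and 6.77% lower), and DESeq2 with the block called none of them, while it called 1219 genes higher and 1445 lower over the whole table. With the libraries of tumour 2, 4 or 5 left out, no respiratory chain gene was called, without tumour 1 there were 3 calls (Cox5a, Cox6a1 and Uqcrc2), and without tumour 6 there were 7 (Ndufa2, Ndufb9, Uqcrq, Cox5a, Cox7a2, Cox6a1 and Cox7b). Over the whole table the genes called higher numbered 1360, 1447 and 1398 without tumours 2, 4 and 5, 1505 without tumour 1 and 1925 without tumour 6. At an unadjusted p under 0.05, 9 were higher and 1, Ndufa4, was lower, against 2640 and 2641 of the 13595 genes tested.

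The intervals bound the changes closely. For 30 of the 34 genes the 95% interval of the fold lay within 1.25-fold in either direction, against 6396 of the 13595 genes tested, and for 33 within 1.5-fold. In the plot of fitted changes by complex the intervals of complex II all cross 0, and the points of complex III all lie to the right of it.

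**Figure D1:**
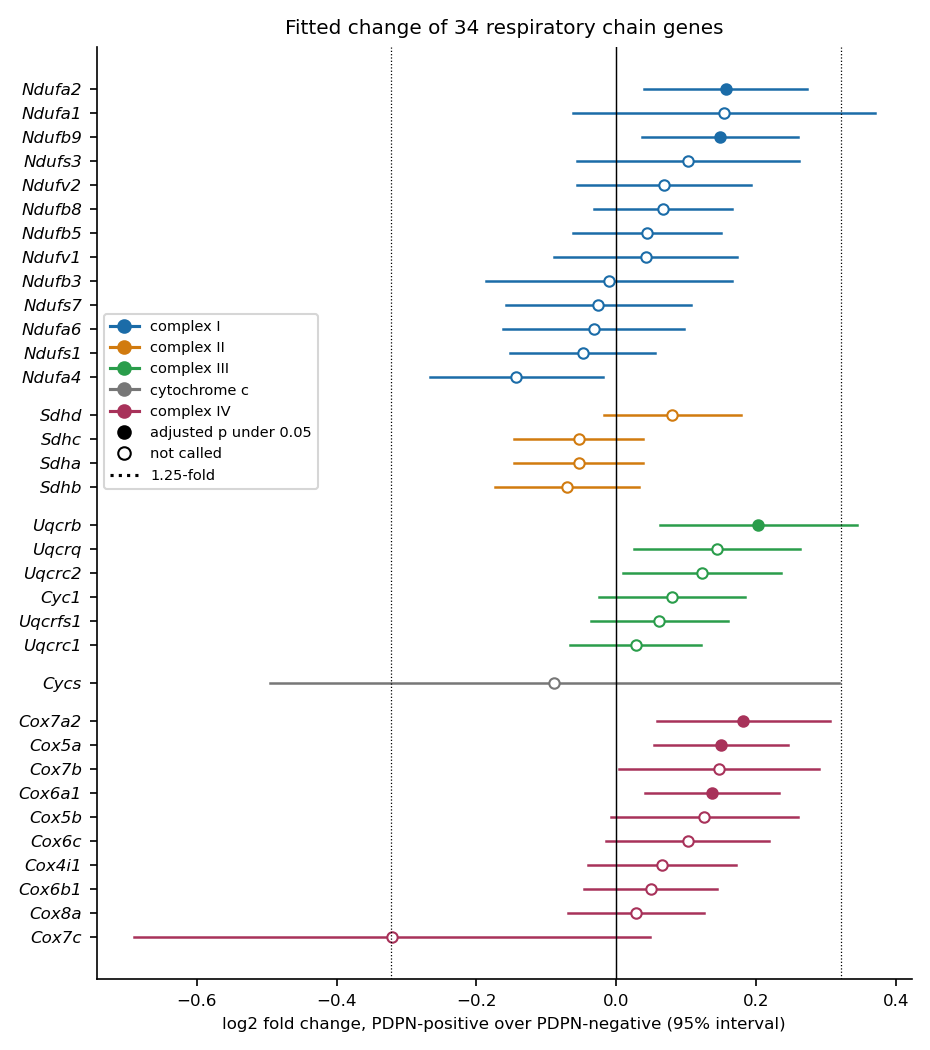
Fitted log2 fold change, PDPN-positive over PDPN-negative, of each of the 34 genes (points) with its 95% interval (lines), grouped and coloured by complex; filled points passed an adjusted p of 0.05 and dotted lines mark 1.25-fold. The 6 filled points lie between 0.14 and 0.20, and the interval of Cox7c reaches furthest to the left.

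The 3 called genes of complex IV are nuclear subunits around the catalytic core, and each rose in all 5 tumours. Their promoter sequences are shown because factors that bind such promoters, NRF1 and the GA-binding protein, are the textbook regulators of nuclear respiratory genes. Each is the 250 bases before the RefSeq start on GRCm38.p6, written 5′ to 3′ on the gene's own strand, and the capitals in the Cox6a1 sequence mark the NRF1 motif searched for, which begins at position -162 from the start. Cox6a1 lies on the minus strand (chr5:115348959-115349208), Cox5a on the plus strand (chr9:57520982-57521231) and Cox7a2 on the minus strand (chr9:79759854-79760103).
Cox6a1: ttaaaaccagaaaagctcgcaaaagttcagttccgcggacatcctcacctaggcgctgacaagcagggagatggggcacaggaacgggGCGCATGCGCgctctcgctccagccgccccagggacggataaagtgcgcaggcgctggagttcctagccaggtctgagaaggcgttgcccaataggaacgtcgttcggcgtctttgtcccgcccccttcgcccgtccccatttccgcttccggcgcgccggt
Cox5a: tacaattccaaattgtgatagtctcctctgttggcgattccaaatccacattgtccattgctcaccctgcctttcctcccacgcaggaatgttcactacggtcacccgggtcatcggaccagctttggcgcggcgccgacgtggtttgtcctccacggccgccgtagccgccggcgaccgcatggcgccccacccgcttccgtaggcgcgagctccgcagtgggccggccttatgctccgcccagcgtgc
Cox7a2: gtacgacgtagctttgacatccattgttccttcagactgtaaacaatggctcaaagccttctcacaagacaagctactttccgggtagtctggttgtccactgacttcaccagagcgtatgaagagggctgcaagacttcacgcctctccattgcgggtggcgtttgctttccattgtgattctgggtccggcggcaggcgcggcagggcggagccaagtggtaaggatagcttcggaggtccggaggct

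The motif was searched on both strands from 250 bases before to 50 after each start, for the 24 of the 34 genes with a RefSeq entry. The NRF1 motif was present in 2 of the 24 (8.33%), Cox6a1 and Uqcrc1, against 0.971% of 32851 RefSeq promoters. The GA-binding motif CCGGAAGT, which does not overlap it in these promoters, was present in 2 of the 24 (8.33%), Cox8a and Ndufs3, against 3.89% of all promoters. Each share rests on 2 genes, and enrichment was not tested. Among these matches only that of Cox6a1 lies wholly within the 250 bases before the start. Of these 4 genes Cox6a1 was called, and the fitted log2 fold changes of the others were 0.028 for Uqcrc1, 0.029 for Cox8a and 0.10 for Ndufs3.

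Complex I oxidises NADH. Its 5 core subunits measured here carry the flavin and iron-sulphur clusters or hold them in place, and the others are accessory subunits around that core, apart from Ndufa4, described below. Of the 13 complex I genes 2 were called higher and none lower. Over all 13595 genes tested 1880 (13.8%) were called higher and 1950 (14.3%) lower. Both called genes encode accessory subunits, which make up most of the 13. Whether calls differ between accessory and core subunits was not tested. Over the 13 genes the median log2 fold change was 0.044, against 0.007 over all genes tested. It was 0.025 without tumour 4, 0.019 without tumour 5 and 0.087 without tumour 6.

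Ndufa2, an accessory subunit of the arm that reaches into the matrix, stood at 48.6, 46.7, 45.2, 44.9 and 57.6 CPM in the PDPN-negative libraries of tumours 1, 2, 4, 5 and 6. In the PDPN-positive libraries it was at 56.9, 49.5, 51.7, 54.6 and 57.7 CPM. The PDPN-positive library was higher in all 5 tumours, by least in tumour 6, and the groups overlapped because the PDPN-negative library of tumour 6 was as high as any. The fold change was 1.11 (95% interval 1.03 to 1.21), with a log2 fold change of 0.16 ± 0.054 (SE, adjusted p = 0.0451), and it was called in 6 of 14 analyses (the reported fit and 13 alternatives).

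Ndufb9 (ENSMUSG00000022354, chr15:58933756-58939488 in GENCODE M21 on GRCm38), an accessory subunit of the membrane arm, was at 52.8, 53.6, 50.6, 50.97 and 62.3 CPM in the PDPN-negative libraries in the same order. The PDPN-positive partners were at 59.4, 54.6, 61.9, 57.5 and 66.00 CPM. Again every pair was higher on the PDPN-positive side and the highest PDPN-negative value came from tumour 6. The log2 fold change was 0.15 ± 0.052 (SE, adjusted p = 0.0471), and the call was made in 4 of 14 analyses, with adjusted p from 0.0335 to 0.235. Of its coding 50-base stretches, 31.4% also occur in another annotated gene, which held 0 counts.

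Ndufa4 went the other way without passing the threshold. It was named as a complex I protein and is now regarded as a subunit associated with complex IV. Its levels were 45.2, 45.5, 42.2, 37.5 and 52.4 CPM in PDPN-negative and 42.8, 35.9, 37.98, 37.1 and 48.1 CPM in PDPN-positive libraries. All 5 PDPN-positive libraries were below their partners, with a log2 fold change of -0.14 ± 0.058 (SE, adjusted p = 0.0818), the lowest p among those of the 34 with a negative fit. Counting it with complex IV moved the median of complex I from 0.044 to 0.056 and that of complex IV from 0.11 to 0.10, and no call depends on where it is counted.

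Per kilobase of the principal transcript, Ndufb8, an accessory subunit of the membrane arm, was the most abundant of the 13, at 104 CPM per kb over all libraries. It stood at 69.1, 64.6, 69.3, 61.9 and 80.99 CPM in PDPN-negative and 73.2, 66.2, 73.3, 68.7 and 80.3 CPM in PDPN-positive libraries (log2 fold change 0.067, 95% interval -0.032 to 0.17, adjusted p = 0.313). Both groups peaked in tumour 6 and overlapped. Ndufs3, a core subunit at the ubiquinone side, was the least abundant as counted at 18.3 CPM per kb, with 20.6, 18.9, 18.2, 16.2 and 18.5 CPM and 19.5, 20.5, 18.9, 19.99 and 20.2 CPM (log2 fold change 0.10, 95% interval -0.057 to 0.26, adjusted p = 0.339). Of its coding 50-base stretches 47.8% recur in 2 pseudogenes. These held 3393 counts against 2654 for Ndufs3, so its level and rank are uncertain.

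The other core subunits were not called. Ndufv1, which holds the flavin, had a log2 fold change of 0.042 ± 0.061 (SE, adjusted p = 0.652), and Ndufv2, its iron-sulphur partner, one of 0.069 ± 0.058 (SE, adjusted p = 0.417). Ndufs1, the largest iron-sulphur subunit, was fitted at -0.048 ± 0.048 (SE, adjusted p = 0.502). Ndufs7, which carries the cluster that hands electrons to ubiquinone, was fitted at -0.025 ± 0.061 (SE, adjusted p = 0.801). Their signs differ and every interval spans 0.

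The remaining accessory subunits were not called either. Ndufa1 had the widest interval of the complex (log2 fold change 0.15, 95% interval -0.062 to 0.37, adjusted p = 0.281), with 3 tumours higher and 2 lower. Ndufa6 was fitted at -0.032, Ndufb5 at 0.044 and Ndufb3 at -0.011 (adjusted p = 0.737, 0.551 and 0.943). The sign of Ndufb3, and those of Ndufs7 and Ndufv1 among the core subunits, turned in at least 1 alternative analysis.

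Complex II, succinate dehydrogenase, gave no call in either direction, and the same counts, 0 and 0, came from the fit without the block, from DESeq2 and from limma-voom. None of its 4 genes passed an unadjusted p of 0.05. The median log2 fold change was -0.054, and all 4 intervals lay within 1.25-fold.

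Sdha, the flavoprotein that oxidises succinate, was at 199, 189, 207, 197 and 219 CPM in the PDPN-negative and 195, 185, 201, 180.2 and 213 CPM in the PDPN-positive libraries. Every PDPN-positive library was slightly below its partner, by less than the differences between tumours (log2 fold change -0.054, 95% interval -0.15 to 0.038, adjusted p = 0.389). Sdhc, a membrane anchor, had the same order in all 5 tumours, with 115, 114, 116, 114 and 122 CPM against 113, 108, 114, 105 and 119 CPM (log2 fold change -0.053, 95% interval -0.15 to 0.039, adjusted p = 0.394). Per length it was the least abundant of the 4, at 35.98 CPM per kb.

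Sdhd, the other membrane anchor and the most abundant of the 4 per length (114 CPM per kb), was at 138, 134, 129, 125 and 156 CPM and 136, 139, 143, 139.6 and 161 CPM. It was higher in 4 of 5 PDPN-positive libraries (log2 fold change 0.081, 95% interval -0.017 to 0.18, adjusted p = 0.212). Sdhb, the iron-sulphur subunit, was at 102, 103, 98.97, 95.4 and 120.2 CPM and 93.5, 99.00, 99.4, 97.1 and 105 CPM, with a single high value in the PDPN-negative library of tumour 6 (log2 fold change -0.070, 95% interval -0.17 to 0.033, adjusted p = 0.308).

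**Figure D2:**
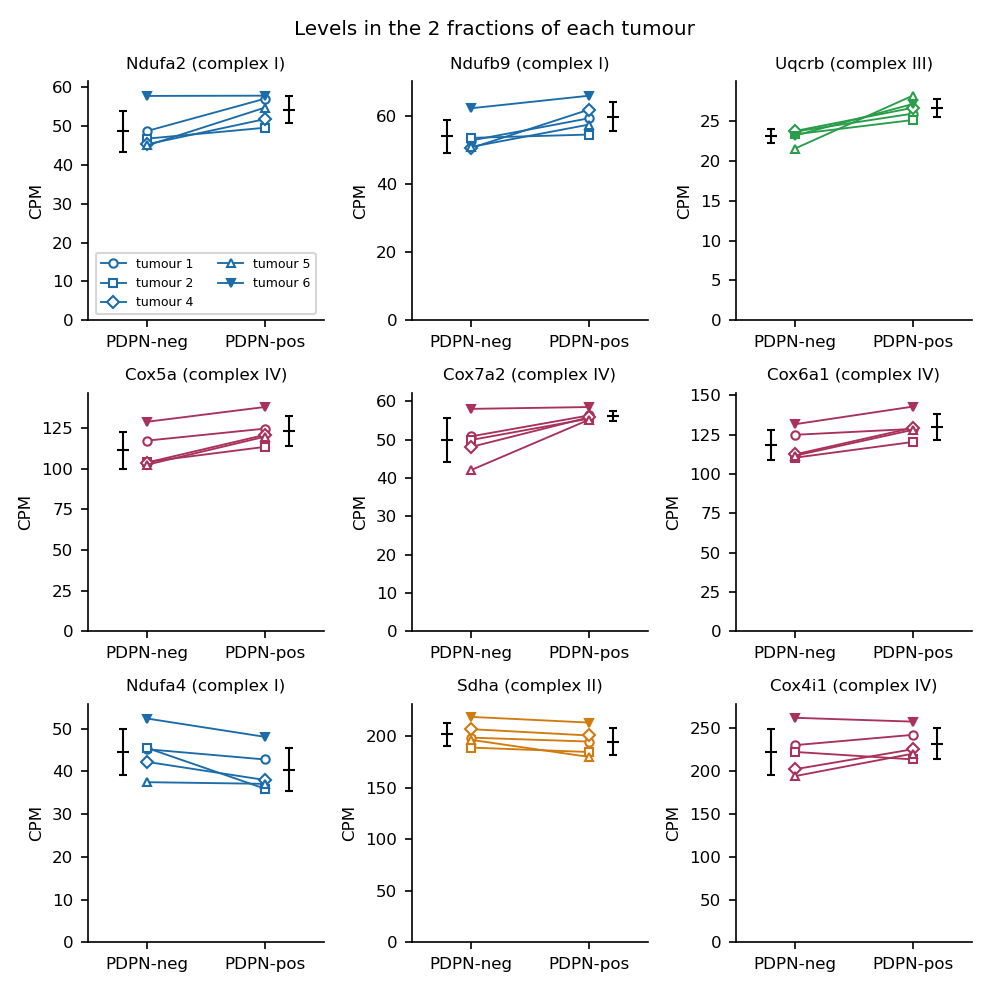
Level in CPM of the 6 called genes and of Ndufa4, Sdha and Cox4i1 in each library, with a line joining the PDPN-negative and PDPN-positive library of each tumour, tumour 6 filled, and the mean ± SD (n = 5) at the sides. The lines of the 6 called genes all rise, those of Ndufa4 and Sdha all fall, and tumour 6 lies high in most panels but not in that of Uqcrb.

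Complex III, which passes electrons from ubiquinol to cytochrome c, had 6 of 6 fits above 0, 1 of them called, with a median log2 fold change of 0.10. Over all genes tested 7025 of 13595 fits were above 0, and 13.8% were called higher, against 16.7% here. At an unadjusted p under 0.05 there were 3 genes higher and 0 lower. The median kept its sign in all 13 alternatives, between 0.075 and 0.112.

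Uqcrb (ENSMUSG00000021520, chr13:66900617-66905378), a small ubiquinone-binding subunit, had the largest fitted rise of the 34. Its PDPN-negative libraries were at 23.6, 23.3, 23.7, 21.5 and 23.1 CPM and its PDPN-positive libraries at 25.9, 25.1, 26.6, 28.2 and 27.1 CPM. It was the only one of the 34 whose groups did not overlap, against 5.38% of all genes tested that were higher without overlap and 10.5% in either direction. The fold change was 1.152 (95% interval 1.04 to 1.27), with a log2 fold change of 0.20 ± 0.066 (SE, adjusted p = 0.0331), and the gene was called in 8 of 14 analyses. Of its coding 50-base stretches 72.9% recur in 4 processed pseudogenes, and since no source used here says how reads with several matches were treated, its count is uncertain.

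Uqcrq, a small subunit next to Uqcrb, was at 68.5, 65.04, 64.01, 69.2 and 92.6 CPM and 78.9, 68.2, 80.9, 76.7 and 90.5 CPM, higher in 4 of 5 tumours. The exception was tumour 6, whose PDPN-negative library exceeded every other (log2 fold change 0.14, 95% interval 0.025 to 0.26, adjusted p = 0.0686). Without tumour 6 it was called (adjusted p = 0.0203). Uqcrc2, a core protein and the least abundant of the 6 per length (45.6 CPM per kb), was at 91.6, 79.7, 83.7, 73.4 and 85.6 CPM and 85.5, 92.5, 92.8, 83.4 and 95.98 CPM, with tumour 1 as the exception (log2 fold change 0.12, 95% interval 0.0094 to 0.24, adjusted p = 0.100). It was called without tumour 1 (adjusted p = 0.0258).

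Uqcrc1, the other core protein and the most abundant per length at 86.6 CPM per kb, had the smallest fit of the complex, with 140.2, 133, 137, 140.0 and 158 CPM and 145, 135, 148, 139 and 155 CPM (log2 fold change 0.028, 95% interval -0.066 to 0.12, adjusted p = 0.681). The redox-active subunits lay between. Cyc1, cytochrome c1, was fitted at 0.080 ± 0.049 (SE, adjusted p = 0.250), and Uqcrfs1, the Rieske iron-sulphur protein, at 0.062 ± 0.046 (SE, adjusted p = 0.351), each higher in 4 of 5 tumours.

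Cytochrome c itself could not be bounded as closely. Cycs stood at 2.19, 2.89, 1.495, 2.09 and 1.83 CPM in PDPN-negative and 2.04, 2.60, 1.96, 1.91 and 1.32 CPM in PDPN-positive libraries, from 284 counts in all 10 libraries together (log2 fold change -0.088, 95% interval -0.50 to 0.32, adjusted p = 0.772). All of its coding 50-base stretches recur in other genes, 10 of them pseudogenes, so its level is uncertain. As counted, Cycs was the lowest of the 34 per length, at 0.651 CPM per kb.

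Complex IV, cytochrome c oxidase, reduces oxygen to water. Of its 10 genes 3 rose (30%, against 13.8% of all genes tested) and none fell. Fits above 0 numbered 9, against 7025 of all 13595 genes, and the median log2 fold change was 0.11. The median ranged from 0.069, without tumour 5, to 0.136, without tumour 6, over 14 alternatives. Whether complex IV differed from complex II was not tested.

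Cox5a (ENSMUSG00000000088, chr9:57521274-57532426), a matrix-side subunit, was at 117, 104, 104, 103 and 129 CPM in PDPN-negative and 125, 114, 121, 119.8 and 138 CPM in PDPN-positive libraries. Each tumour's PDPN-positive library was higher, although both libraries of tumour 6 were higher than those of the other tumours. The fold change was 1.11 (95% interval 1.04 to 1.19), with a log2 fold change of 0.15 ± 0.045 (SE, adjusted p = 0.0221), and it was called in 9 of 14 analyses with adjusted p from 0.0159 to 0.228. A share of 20.8% of its coding 50-base stretches recurs in other genes.

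Cox6a1 (ENSMUSG00000041697, chr5:115345642-115348981), the broadly expressed form of subunit VIa, was at 125, 110.3, 112, 112 and 132 CPM and 129, 120.3, 129, 128 and 143 CPM. It was likewise higher in 5 of 5 tumours, by least in tumour 1, with a fold change of 1.10 (95% interval 1.03 to 1.18). The log2 fold change was 0.14 ± 0.045 (SE, adjusted p = 0.0340), called in 9 of 14 analyses, and 22.3% of its coding stretches recur in a pseudogene with 0 counts.

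Cox7a2 (ENSMUSG00000032330, chr9:79755361-79759878), the broadly expressed form of subunit VIIa, was at 50.9, 49.9, 48.1, 42.1 and 58.1 CPM and 56.4, 55.5, 55.9, 55.2 and 58.5 CPM. The PDPN-positive values lay close together while the PDPN-negative ones ranged widely, and the gap was widest in tumour 5 and near 0 in tumour 6. The log2 fold change was 0.18 ± 0.057 (SE, adjusted p = 0.0292), a fold change of 1.13 (95% interval 1.04 to 1.24), called in 8 of 14 analyses. No coding stretch of Cox7a2 or Ndufa2 recurs in another gene. Exons of 11 of the 34 genes overlap those of another annotated gene, among them Ndufa2, Ndufb9, Uqcrb and Cox5a of the called ones, and without a stated strand setting such counts are uncertain.

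Cox5b, the zinc-binding subunit, was the seventh gene higher in all 5 tumours, with 25.99, 25.6, 24.5, 25.6 and 28.2 CPM and 27.7, 26.3, 27.7, 30.8 and 29.3 CPM (log2 fold change 0.13, 95% interval -0.008 to 0.26, adjusted p = 0.153). It was called in none of 14 analyses. In all, 7 of the 34 genes (20.6%) were higher in every tumour and 4 (11.8%, Ndufa4, Sdha, Sdhc and Cox7c) lower in every tumour, against 17.4% and 17.6% of all genes tested.

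Cox4i1, the usual form of the largest nuclear subunit, was the most abundant of the 34 per length at 301 CPM per kb. It was at 230.5, 223, 202, 194 and 262 CPM and 243, 214, 226, 221 and 258 CPM, higher in 3 of 5 PDPN-positive libraries (log2 fold change 0.066, 95% interval -0.040 to 0.17, adjusted p = 0.354). Cox8a followed at 263 CPM per kb, then Cox6a1 at 217, Cox5a at 182 and Cox6b1 at 163, so the 5 most abundant of the 34 per length all belong to complex IV. Cox8a and Cox6b1 were fitted at 0.029 ± 0.045 (SE, adjusted p = 0.684) and 0.049 ± 0.044 (SE, adjusted p = 0.449).

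Cox7b was fitted at 0.15 ± 0.066 (SE, adjusted p = 0.118) and Cox6c at 0.10 ± 0.054 (SE, adjusted p = 0.182). Cox7c had the lowest fit of the 34. It stood at 2.66, 2.69, 2.42, 2.96 and 1.90 CPM in PDPN-negative and 2.53, 1.95, 2.02, 2.14 and 1.48 CPM in PDPN-positive libraries, lower in 5 of 5 tumours (log2 fold change -0.32, 95% interval -0.69 to 0.048, adjusted p = 0.187). These values rest on 317 counts in all, and 81.9% of its coding stretches recur in 3 pseudogenes that together held 2687 counts, so its level is uncertain. Without Cox7c the median of complex IV was 0.13.

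The ratio within each tumour was also read by complex. For complex I the median log2 ratio of PDPN-positive to PDPN-negative CPM was -0.022, 0.026, 0.094, 0.15 and -0.018 in tumours 1, 2, 4, 5 and 6. For complex III it was 0.090, 0.073, 0.16, 0.12 and -0.016, and for complex IV 0.057, 0.065, 0.17, 0.21 and -0.015. The largest ratios of complexes I and IV came from tumour 5 and that of complex III from tumour 4, and all 3 complexes were slightly below 0 in tumour 6. For complex II the 5 ratios were -0.025, -0.042, -0.008, -0.047 and -0.033, below 0 in each tumour. In tumour 6, 12 of the 34 genes were higher in the PDPN-positive library, against 29 of 34 in tumour 4. Over all 13595 genes tested the counts were 6817 in tumour 6 and 6772 in tumour 4.

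**Figure D3:**
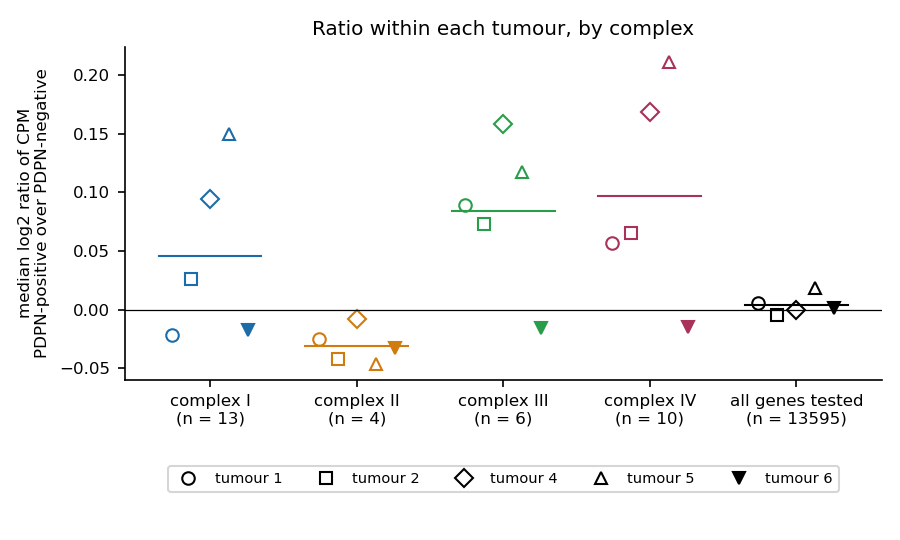
Median over the genes of each complex of the log2 ratio of CPM, PDPN-positive over PDPN-negative, in each tumour (symbols), with the mean over the 5 tumours (line) and the same for all 13595 genes tested. The ratios of complexes III and IV lie above 0 in 4 of 5 tumours, those of complex II below 0 in all 5, and those of all genes within 0.02 of 0.

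Libraries of tumour 6 stood apart for these genes and for some other mitochondrial genes. The PDPN-negative library of tumour 6 held the highest of the 10 values for 17 of the 34 genes (50%), against 9.28% of 13556 genes, and 1 of the 2 libraries of tumour 6 held it for 26 (76.5%, against 21.9%). The PDPN-negative library of tumour 5 held the lowest value for 16 (47.1%, against 15.3%). Of 14 ATP synthase genes, 50% were highest in the PDPN-negative library of tumour 6. In that of tumour 5, 57.1% were lowest. For 16 genes of the TCA cycle and pyruvate dehydrogenase both shares were 37.5%. The share highest in the PDPN-negative library of tumour 6 was 7.69% for 13 genes whose proteins assemble complex I, and 11.8% for 17 that assemble complex IV. Summed over the 34 genes, PDPN-negative libraries ran from 2368 CPM in tumour 5 to 2917 CPM in tumour 6, and PDPN-positive libraries from 2528 CPM in tumour 2 to 2886 CPM in tumour 6. The spread between tumours of 1 fraction thus exceeded the difference between the fractions. The sum of complex IV lay between 794 and 1010.0 CPM in PDPN-negative and between 888 and 1015 CPM in PDPN-positive libraries, and was higher on the PDPN-positive side in 5 of 5 tumours, as was that of complex III. The sum of complex I was higher in 3 and that of complex II in 1.

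**Figure D4:**
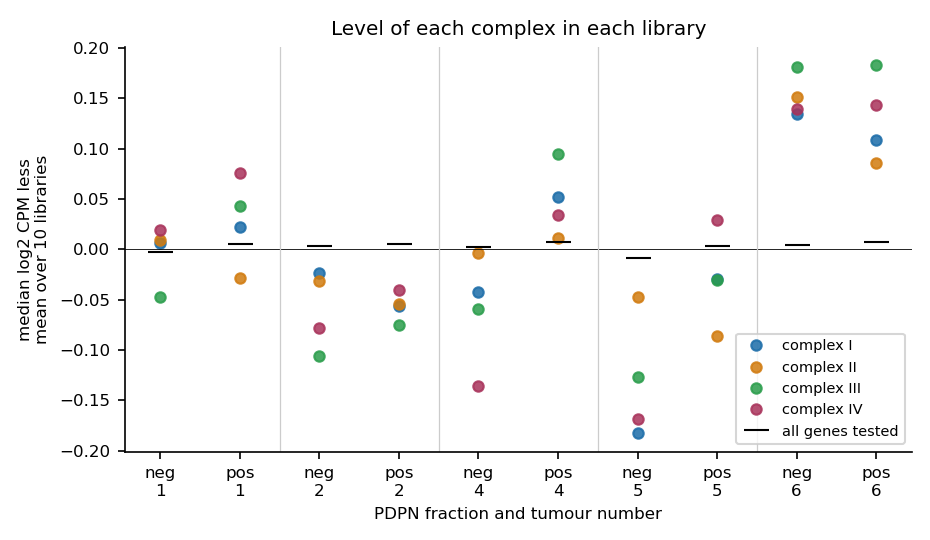
Median over the genes of each complex of log2 CPM, each gene first centred on its mean over the 10 libraries, for each PDPN-negative and PDPN-positive library. Each of the 4 complexes was highest in the libraries of tumour 6 among those of its fraction (0.14 and 0.13 over all 34 genes) and, over all 34, lowest in the PDPN-negative library of tumour 5 (-0.15).

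Markers of other cell types also moved. Summed over 7 epithelial or tumour markers (Epcam, Krt8, Krt18, Krt14, Krt5, Cdh1 and Esrp1), levels were 204.9 CPM in the PDPN-negative and 254 CPM in the PDPN-positive library of tumour 6, 202 CPM in the PDPN-positive library of tumour 5, and 73.9 to 127 CPM in the other 7. Most of that sum is Cdh1, at 157 and 213 CPM in the libraries of tumour 6. Between the fractions Cdh1 was called higher (log2 fold change 0.72), Epcam (-0.65) and Krt8 (-0.28) were called lower, and the other 3 tested were not called. Between the fractions, 9 of 10 fibroblast markers were called higher (sums 29.3 to 41.7 against 289 to 473 CPM). Monocytes, neutrophils and eosinophils are other CD11B-positive cells that such a gate could hold. Of 7 monocyte markers 5 were called lower (948 to 1480.1 against 433 to 606 CPM). Of 8 tested neutrophil markers 7 were called lower and 1 higher (221 to 295 against 119 to 148 CPM), and all 4 tested eosinophil markers lower (26.9 to 62.4 against 2.53 to 7.61 CPM). Sums of 7 endothelial markers were 90.3 to 207 and 106 to 282 CPM, higher on the PDPN-positive side in 5 of 5 tumours. Most of that sum is Pecam1, at a mean of 112 and 156 CPM. Of 5 tested, 2 were called higher (Pecam1 and Vwf, log2 fold change 0.44 and 0.73) and none lower. Tie1 (0.33), Kdr (-0.30) and Cdh5 (-0.091) were not called. Conventional dendritic cell markers summed to 29.9 to 91.7 and 19.8 to 59.1 CPM, T or NK cell markers to 16.1 to 44.8 and 9.50 to 18.1 CPM, and B or plasma cell markers to 3.76 to 39.8 and 1.75 to 17.1 CPM. Each of these 3 sums was lower on the PDPN-positive side in every tumour. Of 6 tested dendritic cell markers 4 were called lower and none higher. The only tested T or NK cell marker, Cd4, and the only tested B or plasma cell marker, Cd79b, were called lower. The part of these cells in the results above was not tested.

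The respiratory chain genes outside the 34 were read from the same fit. Of 24 other complex I subunits 2 were called higher and 0 lower, with a median of 0.079. Ndufv3, a small accessory protein of the NADH-oxidising end, rose from 64.4 ± 3.71 to 77.3 ± 5.19 CPM (mean ± SD of 5 libraries), a log2 fold change of 0.26 ± 0.052 (SE, adjusted p = 0.00183), in 14 of 14 analyses. Ndufa11, a membrane-arm subunit, rose from 22.3 ± 1.83 to 25.5 ± 2.36 CPM, a log2 fold change of 0.19 ± 0.064 (SE, adjusted p = 0.0402), in 6 of 14. Ndufb6 and Ndufb7, also of the membrane arm, were next by p and not called (adjusted p = 0.0699 and 0.214). None of 3 other complex III subunits was called in either direction, nor by DESeq2 or limma-voom, with 1 of them higher at an unadjusted p under 0.05. Uqcr11 was fitted at 0.14 ± 0.060 (SE, adjusted p = 0.0889) and Uqcr10 at 0.10 ± 0.056 (SE, adjusted p = 0.203).

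Of 9 other subunits and tissue isoforms of complex IV, 4 passed the filter. Cox4i2, the isoform of Cox4i1 known to be induced at low oxygen, rose from 4.89 ± 1.36 to 7.56 ± 1.61 CPM (mean ± SD of 5 libraries), a log2 fold change of 0.64 ± 0.15 (SE, adjusted p = 0.00739), in 5 of 5 tumours and 13 of 14 analyses. Its log2 fold change was larger than that of any of the 34 genes. Cox6b2 and Cox7a1, forms known from testis and muscle, were at about 1 to 2 CPM, with -0.66 ± 0.25 (SE, adjusted p = 0.0672) and 0.35 ± 0.20 (SE, adjusted p = 0.206), and Cox7a2l, a supercomplex factor, was fitted at -0.045 ± 0.051 (SE, adjusted p = 0.556).

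Of 14 tested ATP synthase genes 1 rose and none fell, with 13 fits above 0 (against 7025 of all 13595) and a median of 0.078. The riser was Atpif1, the inhibitor of the enzyme's reverse reaction, with 77.6 ± 9.87 against 91.8 ± 7.90 CPM (mean ± SD of 5 libraries), a log2 fold change of 0.25 ± 0.055 (SE, adjusted p = 0.00431), called in 13 of 14 analyses. The subunits Atp5e, Atp5f1 and Atp5b were fitted at 0.15 ± 0.054 (SE, adjusted p = 0.0578), 0.10 ± 0.051 (SE, adjusted p = 0.158) and 0.096 ± 0.046 (SE, adjusted p = 0.142).

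The mitochondrially encoded subunits gave no call. Of 13 such genes 7 were tested and none was called in either direction by edgeR, DESeq2 or limma-voom, nor passed an unadjusted p of 0.05. Their median was -0.028, and their highest library was the PDPN-negative one of tumour 1, not of tumour 6. The genes nearest to a call were mt-Nd6, at 3.35 ± 1.70 and 4.23 ± 0.520 CPM (mean ± SD of 5 libraries), a log2 fold change of 0.39 ± 0.22 (SE, adjusted p = 0.216), and mt-Nd4, at 448 ± 91.8 and 412 ± 52.4 CPM, a log2 fold change of -0.11 ± 0.091 (SE, adjusted p = 0.430). The other 6, mt-Atp6, mt-Atp8, mt-Co2, mt-Co3, mt-Nd3 and mt-Nd4l, are listed at 0 counts in all 10 libraries. A count of 0 allows up to 3 counts, or 0.235 CPM in the smallest library, for counting error only, and since mt-Co1 stood at 2189 ± 528 and 2252 ± 296 CPM no absence of these 6 RNAs is read from it.

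Assembly factors, the proteins that build the complexes without staying in them, gave 1 call. None of 13 factors for complex I, 4 for complex II or 6 for complex III was called by edgeR, DESeq2 or limma-voom, with 1 complex I factor, Foxred1, lower at an unadjusted p under 0.05. Foxred1 was fitted at -0.14 ± 0.063 (SE, adjusted p = 0.113) and Acad9 at -0.15 ± 0.073 (SE, adjusted p = 0.141), Sdhaf3 at 0.16 and Sdhaf1 at -0.094, and Bcs1l at 0.12 and Uqcc2 at 0.098. Of 17 factors for complex IV 1 was called, lower: Sco1, which delivers copper to the complex, at 14.5 ± 2.15 against 11.8 ± 2.45 CPM (mean ± SD of 5 libraries), a log2 fold change of -0.30 ± 0.094 (SE, adjusted p = 0.0308), in 9 of 14 analyses. Coa5, Surf1 and Coa3 followed by p, at 0.10 ± 0.046 (SE, adjusted p = 0.114), -0.17 ± 0.076 (SE, adjusted p = 0.123) and 0.12 ± 0.066 (SE, adjusted p = 0.194).

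Of 11 tested regulators of mitochondrial biogenesis 1 fell and none rose. Ppargc1b, a coactivator of respiratory genes, was at 13.2 ± 1.85 and 10.6 ± 1.74 CPM (mean ± SD of 5 libraries), a log2 fold change of -0.31 ± 0.11 (SE, adjusted p = 0.0434), lower in 4 of 5 tumours and called in 6 of 14 analyses. Polg, the mitochondrial DNA polymerase, Pprc1, another coactivator, and Gabpa, a subunit of the GA-binding protein, were fitted at -0.14 ± 0.048 (SE, adjusted p = 0.0506), -0.13 ± 0.055 (SE, adjusted p = 0.0938) and -0.060 ± 0.048 (SE, adjusted p = 0.394).

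Mitochondrial genes known to respond to low oxygen had a larger median change than any complex. All 7 tested of 8 were called higher, against 13.8% of all genes, with a median log2 fold change of 0.52. The list was drawn up when higher hypoxia genes were already known from these libraries, so its direction is not independent evidence. Ak4, a mitochondrial adenylate kinase, rose from 11.3 ± 2.25 to 29.4 ± 5.23 CPM (mean ± SD of 5 libraries), a log2 fold change of 1.39 ± 0.082 (SE, adjusted p = 5.79e-08). Bnip3, a receptor for the removal of mitochondria, rose from 41.2 ± 8.27 to 82.8 ± 16.8 CPM, a log2 fold change of 1.00 ± 0.12 (SE, adjusted p = 0.00120), and its relative Bnip3l from 48.5 ± 2.56 to 58.6 ± 7.47 CPM, a log2 fold change of 0.26 ± 0.080 (SE, adjusted p = 0.0308). Pdk1, the kinase that shuts pyruvate dehydrogenase, rose from 58.5 ± 10.2 to 83.2 ± 8.70 CPM, a log2 fold change of 0.52 ± 0.075 (SE, adjusted p = 4.22e-04). Higd1a, a protein bound to the respiratory chain, and Lonp1, the matrix protease known to degrade Cox4i1, were fitted at 0.42 ± 0.11 (SE, adjusted p = 0.00877) and 0.18 ± 0.051 (SE, adjusted p = 0.0151), and Cox4i2, given above, is the seventh. Ndufa4l2, the hypoxia-linked relative of Ndufa4, fell below the filter, with 11 and 32 counts, and was higher in 4 of 5 tumours (exact permutation test over pairs, two-sided p = 0.125, where the smallest possible is 0.063).

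In the TCA cycle and pyruvate dehydrogenase, 1 of 16 genes fell and none rose, with a median of -0.011. Fh1, fumarate hydratase, which acts on the product of complex II, was at 96.9, 102, 108, 114 and 101 CPM in PDPN-negative and 84.9, 77.1, 82.9, 82.7 and 79.05 CPM in PDPN-positive libraries. The groups did not overlap, and it was lower in all 5 tumours and called in 14 of 14 analyses, with a log2 fold change of -0.36 ± 0.049 (SE, adjusted p = 1.08e-04). Idh3g, Dlat and Dlst were next by p, at -0.12 ± 0.049 (SE, adjusted p = 0.0872), 0.13 ± 0.056 (SE, adjusted p = 0.112) and -0.086 ± 0.042 (SE, adjusted p = 0.149), and were not called.

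**Figure D5:**
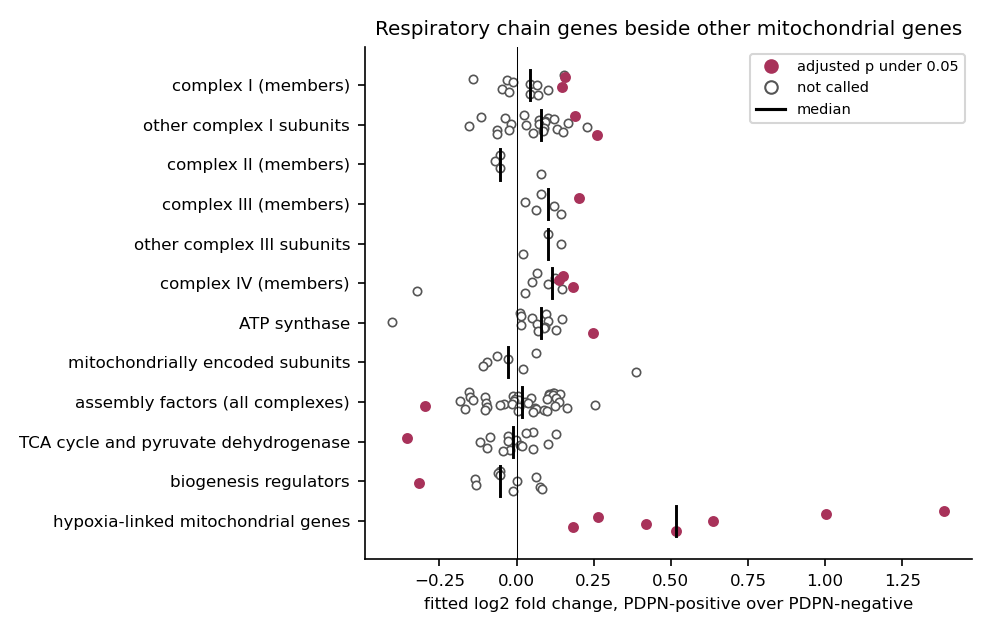
Fitted log2 fold change, PDPN-positive over PDPN-negative, of each tested gene (points) by list, with the median of the list as a bar. The medians of complexes I to IV lie between -0.054 and 0.11, and that of the hypoxia-linked genes at 0.52.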

How the data were processed

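The authors deposited raw counts per gene for 10 libraries. Per the labels' protocols, the cells came from digested tumours, and SMART-Seq amplified the RNA before sequencing. The submitters' processing notes name STAR 2.5.2b, Bowtie2 2.3.3.1, featureCounts 1.5.3 and cutadapt 1.15, with no roles. No source used here gives their settings, the genome build, strand or the treatment of reads with several matches. Counts are reads, not molecules, so floors cover counting error only.

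The test was edgeR 4.0.16 (R 4.3.3): filterByExpr by group (minimum count 10, minimum total 15), TMM and a robust quasi-likelihood fit of fraction and tumour, adjusted by Benjamini-Hochberg over 13595 genes. The tumour number pairs the fractions, per the labels, and deviations of paired libraries from their group means correlated at 0.249 to 0.528. SEs are the log2 fold change over the square root of F, and 95% intervals use a t quantile. Alternatives were the fit without the block, RLE, upper quartile or no scaling, no filter or a mean CPM of at least 1, DESeq2 1.42.0, limma-voom (limma 3.58.1), each tumour left out, and Ndufa4 counted with complex IV. On simulated counts for this comparison (13595 genes, 50 changed by each fold), the test called 62% of genes changed 1.25-fold and 84% of those changed 1.5-fold, with 11 false calls. Far fewer genes were changed there than the 3830 called in the data. No fold under 1.25 was simulated, so these shares do not give the sensitivity for the smaller rises called above.

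Per-library values are given for genes called, for the 2 of lowest p and the most and least abundant per length in each complex, and for those with the same sign in all 5 tumours. From each other list every called gene and up to 4 by lowest p are named (2 where none is called). Genes and lists were chosen with earlier results of these data known. Positions, lengths (the median principal transcript) and shared 50-base coding stretches come from GENCODE M21 (GRCm38), promoters from RefSeq (GRCm38.p6). The chromosome 18 gene is given without position or sequence, and 1 marker list is not reported here. mt-Co1 was named, beside the mitochondrial genes at 0, after its values were seen.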

Additional observations from a re-analysis of the deposited data

Results flagged for a closer look

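Among 68 sets of 5 libraries (34 genes in 2 fractions), 10 held a value far from the other 4 by Dixon's test, and 8 of the 10 came from tumour 6. Chance alone flags about 1 of 20 independent sets. These sets share the same 10 libraries and are not independent, so no excess over that rate is read from them. In the PDPN-negative library of tumour 6, Ndufb9 stood at 62.32 CPM with 53.62 CPM as the nearest of the other 4. Ndufs7 stood at 53.6 CPM (nearest 40.87), Sdhb at 120.2 CPM (nearest 102.6) and Sdhc at 121.6 CPM (nearest 115.9). In complex III, Uqcrq stood at 92.63 CPM (nearest 69.24), Cyc1 at 112.3 CPM (nearest 91.06) and Uqcrc1 at 158.2 CPM (nearest 140.2). In the PDPN-positive library of tumour 6, Sdhd stood at 161.3 CPM (nearest 143.1). The other 2 were low values: Ndufv2 at 50.62 CPM in the PDPN-positive library of tumour 2 (nearest 55.7) and Uqcrb at 21.51 CPM in the PDPN-negative library of tumour 5 (nearest 23.14).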

How the results depend on the processing

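Without the replicate block by tumour, the genes called over the whole table went from 1880 to 929 higher and from 1950 to 920 lower, the respiratory chain genes from 6 to 1, and those of complexes I and IV to 0. With DESeq2 the whole table gave 1219 higher and 1445 lower, and complexes I, III and IV and all 34 genes gave 0. Complex I gave 0 calls with RLE or library size alone, and 1 with no filter or a mean CPM of at least 1. Leaving out a tumour gave 0 to 7 calls among the 34 (0 without tumours 2, 4 or 5), 0 to 2 in complex I, 0 to 1 in complex III and 0 to 4 in complex IV. No respiratory chain gene was called lower in any of these analyses. Leaving out a tumour leaves fewer samples, and the cause of the other changes was not tested. The median log2 fold change kept its sign in every analysis for each complex, for cytochrome c and for all 34 genes. Single signs turned for Cox8a (-0.0053 without tumour 4, and -0.0053 to 0.053 with each tumour left out), Ndufb3 (5.6e-05 with upper quartile scaling, 0.026 without tumour 1, 0.051 without tumour 6, range -0.067 to 0.051), Ndufs7 (0.023 without tumour 6, range -0.079 to 0.023) and Ndufv1 (-0.010 without tumour 1, range -0.010 to 0.10). With other scalings the median of all genes was 0.0016 to 0.018, against 0.007. The intervals of Cycs and Cox7c, which rest on 284 and 317 counts, reach beyond 1.25-fold, as do those of Ndufa1 and Uqcrb. The cause was not tested.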

Other observations

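Several of the 34 genes share coding sequence with annotated pseudogenes that held counts of their own, and these values bear on how far each count can be read. Cox7c held 317 counts in all 10 libraries, while its processed pseudogene Gm12338 held 2682. Cycs held 284 counts, and Gm10053, annotated as protein coding and sharing its sequence, held 695. Ndufs3 held 2654 counts against 3387 in Gm12251, and Uqcrb 3445 against 1546 in Gm16089 and 1059 in Gm2962. Cox6c held 6560 counts against 3175 in Cox6c2, and Cox5a 16272 against 6044 in Gm11633. Of all 50-base stretches of Cox5a transcripts, coding or not, 2.85% occur in Gm11633. A larger share, 29.2%, occurs in the non-coding gene Gm26631, which held 15 counts. Among the 34 genes, 19 share no coding 50-base stretch with another gene, 11 share some but under 50%, and 4 at least 50%. How reads were divided between such copies was not tested. These genes were named after their values were seen.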
